A study of Mus musculus with 48 samples.

Results

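The 5 anti-FLAG RNA immunoprecipitation (RIP) libraries that carry replicate number 9 were described against the other 19 RIP libraries of the same 5 constructs. They are 5 of 24 RIP libraries and 5 of 48 libraries in all. They were selected on their own RIP counts outside the 13 most counted gene models, in which replicate 9 had already been seen to stand apart. The RIP differences below are therefore a description, with no test. The matched input libraries were not used in that choice, and tests were made in them alone.

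All libraries come from 4T1, a mouse mammary carcinoma cell line (strain label BALB/cfC3H), in which cells carried the 8166-M24-658 control vector or a FLAG-tagged form of human CNOT7 delivered by lentivirus. The forms were wild-type CNOT7, D40A (no deadenylase activity), E247A/Y260A (no binding of TOB1) and M141R (no binding of CNOT1). Each construct had replicates 6, 7, 8, 9 and 10, except D40A, which had no replicate 7 here. A native RIP without crosslinking was made with the anti-FLAG antibody, and a portion of the lysate was sequenced as input. No source used here says what a replicate number marks, so the 5 libraries of replicate 9 may share a day, a batch of cells or a batch of reagents, and these cannot be told apart.

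CNOT7 is a catalytic subunit of CCR4-NOT, the complex that shortens poly(A) tails and so starts the decay of many mRNAs. It reaches the scaffold CNOT1 through one surface and the adaptors TOB1 and BTG through another. A RIP library holds RNA that came down with the tagged protein together with RNA that sticks to beads or antibody, and the vector cells, which hold no FLAG protein, measure the latter. Most of the primary transcript of a very long gene is intron, which is made and removed in the nucleus. Satellite DNA is the tandem repeat of pericentromeric heterochromatin and is transcribed at a low level. A count on either kind of model can come from unspliced RNA or from DNA, and gene counts cannot tell these apart.

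The depth limits what can be read. Total counts were 1484364, 10719137, 2732681, 2331369 and 2219466 in replicate 9 RIP of CNOT7, D40A, E247A/Y260A, M141R and vector cells, and 1305627 to 4185604 in the other RIP libraries. The D40A library was thus far deeper than any other. After the 13 models were left out, 50116 to 377943 counts remained in replicate 9 and 35265 to 87174 in the others. Values are given as counts per 100,000 counts outside the 13 models. In the inputs 295699 to 423966 counts remained in replicate 9 and 339192 to 737629 in the others. Among 9 mammary epithelial markers 8 had counts in the inputs, with Krt14 at 0, and their sum was 7.10 to 15.7 per 100,000 in replicate 9 and 6.85 to 23.7 in the others. Summed markers of fibroblasts did not exceed 1.74 in any input, and those of lymphocytes did not exceed 0.689. Macrophage markers summed to 4.70 to 7.05 in replicate 9 inputs and 4.14 to 14.4 in the others, endothelial markers to 2.09 to 4.06 and 0 to 3.30, and Alas2 of erythroid cells had 2.61 to 4.74 and 1.47 to 12.4.

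Replicate 9 RIP held more gene models than the other replicates. At an equal depth of 35265 counts, the expected number of models with at least 1 count was 7587 in CNOT7, 7575 in D40A, 8272 in E247A/Y260A, 8845 in M141R and 6306 in vector cells. The other 19 libraries had 3396 to 6528, with a median of 5225. All but the vector library lay above every other RIP library, and the vector library was exceeded by the E247A/Y260A library of replicate 7. Within constructs, replicate 9 had 2739 ± 741 more models than the mean of the other replicates (SD over 5 constructs, n = 5), and more in 5 of 5 constructs. At a depth of 17632 counts the difference was 1752 ± 530 models. Replicate 6 was lowest, at 3396 to 3936 models, and replicates 7, 8 and 10 spanned 4136 to 6528.

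**Figure D1:**
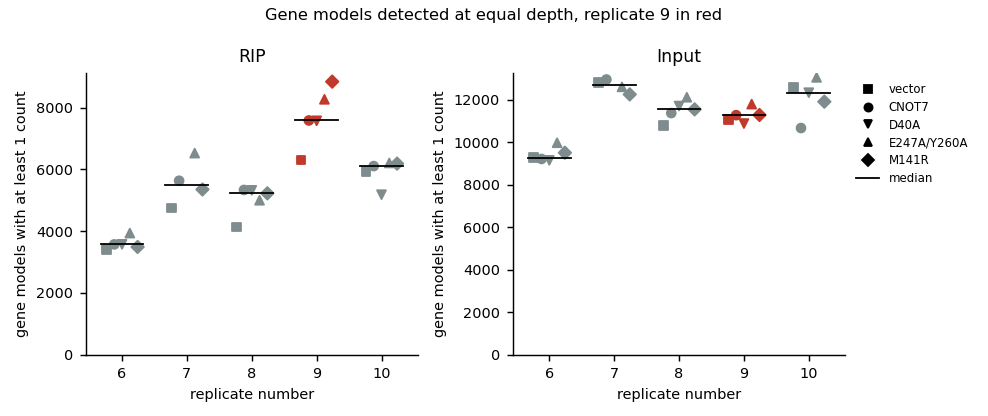
Gene models with at least 1 count at equal depth (y axis) in each RIP (left, depth 35265) and input library (right, depth 295699), by replicate number. Symbols are constructs, lines are medians of a replicate number, and replicate 9 is in red. In the RIP 4 of the 5 red points lie above all grey points, while in the input they lie among them.

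The inputs were compared in the same way. At an equal depth of 295699 counts, replicate 9 inputs had 10879 to 11793 models and the others 9146 to 13053. The difference within constructs was -86.2 ± 200 models (SD, n = 5), with p = 0.896 in an exact two-sided permutation test over the 2500 ways to choose 1 library per construct. Its sign depended on the replicate numbers that entered: without replicate 6 it was -790 (exact permutation p = 0.0456) and without replicate 7 it was 245. Where whole replicate numbers are exchanged instead, only 5 arrangements exist and p cannot go below 0.2, so permutation p-values here describe the spread between libraries.

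The share of counts outside the 13 models was higher in the same RIP libraries. It was 3.38% in CNOT7, 3.53% in D40A, 3.81% in E247A/Y260A, 4.61% in M141R and 2.79% in vector cells, against 1.76% to 3.22% in the others. The groups overlapped, since the vector library lay below the D40A library of replicate 10 at 3.22%. In the inputs the share was 83.3% to 90.7% in replicate 9 and 78.9% to 98.4% in the others (difference 0.683 ± 3.12 percentage points, SD, n = 5, exact permutation p = 0.767). Both input p-values were 0.896 after Benjamini-Hochberg adjustment over the 2 measures.

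The shares of the 13 models differed as well. Atf2, with 187881 counts over the 24 RIP libraries, was the last of the 13, and Ccdc107, with 167711, was the first model kept. ENSMUSG00000045999, the most counted model, took 63.0% to 67.0% of all counts in replicate 9 RIP and 56.6% to 63.4% in the others. Jarid2, a subunit associated with the Polycomb complex PRC2, took 5.35% to 5.66% against 6.38% to 8.26%, without overlap. The lncRNA model LOC102639045 took 2.11% to 2.58% against 2.87% to 3.88%, also without overlap. Filip1l had 7.49% to 9.91% against 9.08% to 12.4%, and these ranges met.

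RIP and input of the same cells resembled each other less in replicate 9. Over 4020 genes thinned to equal depth, the rank correlation of a RIP library with its own input was 0.478 to 0.580 in replicate 9 and had a median of 0.612 in the others, with a range of 0.357 to 0.724. It was lower by 0.0970 ± 0.0499 within constructs (SD, n = 5) and lower in 5 of 5. The correlation is across genes of libraries that share gene lengths, and the groups overlapped.

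Of 26886 models outside the 13, 1234 passed the filter on low counts in the RIP. At equal depth all 5 libraries of replicate 9 lay above all 19 others for 47 models (3.81% of 1234) and below all others for 37 (3.0%). This split moved with the scaling, to 80 above and 2 below with DESeq2's size factors and to 74 and 8 with TMM. It also moved with the filter, to 4 above and 25 below among 291 models with at least 10 counts in every library. Without replicate 10 it was 69 and 164. A fitted difference of at least 2-fold, from edgeR with construct as a block, was found for 206 models higher (16.7%) and 45 lower (3.65%), and the median of all 1234 was -0.12 on the log2 scale. With library size in place of TMM the median moved to -0.70 and the counts became 171 higher and 373 lower. Among all 26886 models without the filter, 182 lay above and 39 below. Models that are high in replicate 9 alone can pass the filter through those libraries, and 13 of the 182 had 0 counts in all other RIP libraries.

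The 47 models fell into named kinds. Genes spanning over 500 kb made up 26 (55.3%, against 8.51% of all 1234 models), satellite models 9 and other models 12. These shares are descriptions. Most long genes that passed the filter did so through their replicate 9 counts (87 of 105 averaged under 5 counts in the others). The satellite group was named after these values were seen. Models named below are mainly from the 12 with the largest fitted difference in each direction. Gm10800, Gm10801 and Tmem132d, outside these 12, were chosen after their values were seen. Of the 12, 7 of the higher ones are satellite models and 5 are long genes.

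The satellite models formed the first group, with 7 of the 9 among the 12 named higher models. Their annotated transcripts, read from GENCODE M21 on GRCm38, share the stretch below, which is shown because all 9 models hold it (8 of them on the annotated strand) and because a read from it cannot be assigned to 1 of them. It occurs, on either strand, in 13 of 26555 table models with a transcript in that annotation (0.049%). It belongs to the mouse major satellite, the repeat unit of pericentromeric chromatin.
30 bases shared by the 9 satellite models: cagtgtgcatttctcatttttcacgttttt

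The 9 models lie in 3 places. Gm26870 (chr9:3000282-3038313, a lincRNA model on the minus strand) overlaps Gm11168, Gm10720, Gm10719, Gm10717 and Gm10715 at the start of the assembled chromosome 9. Gm10800 and Gm10801 lie side by side on chromosome 2 (chr2:98666547-98667301 and chr2:98662237-98664083), and Gm21738 lies on chromosome 14 (chr14:19415857-19418930). Between 35.2% and 87.1% of the 30-base words of the transcripts checked recur in another of these models. A read from one copy can be placed on another, so the counts describe the family, not single models.

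The family summed to 4162 per 100,000 in CNOT7, 3586 in D40A, 3583 in E247A/Y260A, 4852 in M141R and 3170 in vector cells of replicate 9. The other RIP libraries held 83.8 to 1680, with a median of 456. Every replicate 9 library exceeded every other library, the vector library included. The 9 models were listed after these values were seen, and each of the 9 separates on its own, so the separation of the sum follows from the choice. Other models that hold the shared stretch are not in the sum. The within-construct difference was 3.19 ± 0.20 (log2 of the sum + 1, SD, n = 5).

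Single models also lay higher in replicate 9, though their order over constructs varied. Gm26870 had 1062, 1237, 1206, 1513 and 571 per 100,000 in CNOT7, D40A, E247A/Y260A, M141R and vector cells, against 10.9 to 310 in the others (median 151). Gm10800, the most counted, had 1446 to 2065 against 41.3 to 875. Gm11168 had the largest fitted difference, 4.04 ± 0.42 (log2, SE), with 38.7 to 130 in replicate 9 and 0 to 28.1 in the others. For Gm21738, Gm10719, Gm10720, Gm10717 and Gm10715 the fitted differences were 3.49 to 3.92, and none of their ranges met. Gm10800 (3.12 ± 0.47) and Gm10801 (2.83 ± 0.47, 361 to 705 against 15.8 to 311) had the smallest of the 9.

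In the inputs the ranges of the same family overlapped. The family summed to 85.7 to 179 per 100,000 there and to 6.61 to 473 in the other inputs. None of the 9 passed the input test by edgeR or DESeq2, and 0 had an unadjusted p under 0.05. With 5.75% of all input genes higher and 1.09% lower, few or no calls among 9 models are near the background. Replicate 6 held 6.61 to 21.6 in its inputs, a range that among the other numbers was reached only by the M141R input of replicate 10 (17.4), and its RIP libraries were the lowest, at 83.8 to 169.

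**Figure D2:**
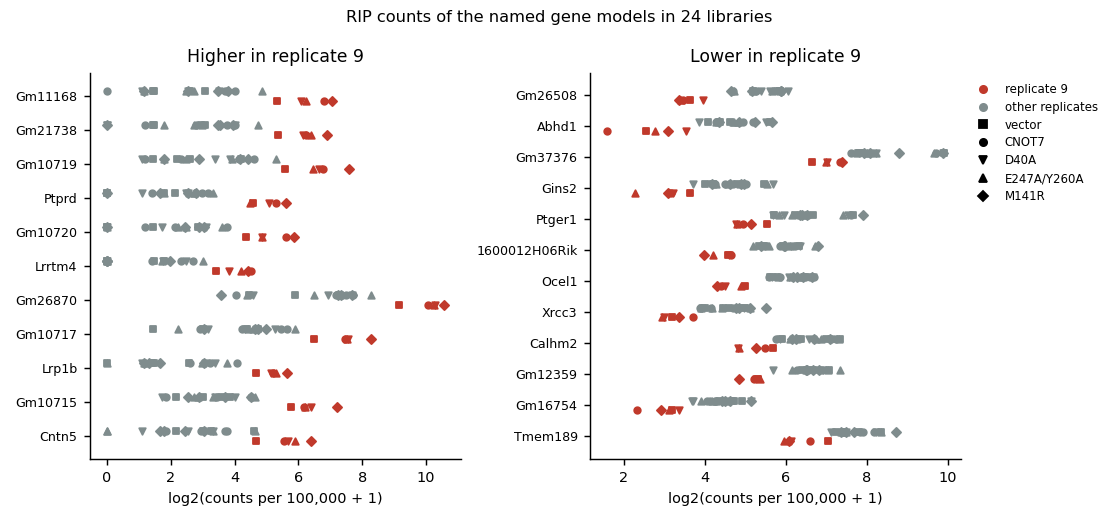
RIP counts, as log2 of counts per 100,000 + 1 (x axis), of 11 models higher (left) and 12 lower (right) in replicate 9 (red) than in the 19 other libraries (grey). Each point is a library, and symbols are constructs. No red point of a model overlaps its grey points, and for some models, such as Cntn5 and Tmem189, the vector point of replicate 9 is the red point nearest to the grey ones.

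Long genes formed the second group. Of the table's genes 232 span over 500 kb, and 228 of these lie outside the 13 models. The genes summed to 4569 per 100,000 in CNOT7, 4335 in D40A, 4547 in E247A/Y260A, 6324 in M141R and 2949 in vector cells, and to 1176 to 2795 in the others. All 5 libraries lay above all 19, and the E247A/Y260A library of replicate 7 came closest. The within-construct difference of the sum was 1.37 ± 0.40 (log2 of the sum + 1, SD, n = 5). The 4 long genes among the 13 did not share one direction: Galnt2 took 0.624% to 0.994% of all counts against 0.453% to 0.934%, while the mean share of Cntnap5b, Fgfr2 and Il1rapl1 in replicate 9 minus that in the others was -0.160, -0.120 and -0.0983 percentage points.

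Of the 228 genes 105 passed the filter, 26 of them lay above all other libraries in every replicate 9 library (3.81% of all 1234 models did), and 0 lay below (3.0% of all did). In 87 of the 105 the other libraries averaged under 5 counts, so most passed through their replicate 9 counts and their fitted differences are given as values only. Ptprd, a receptor-type tyrosine phosphatase of synapses (2271 kb, chromosome 4), had 37.9, 32.8, 21.1, 47.4 and 22.6 per 100,000 in CNOT7, D40A, E247A/Y260A, M141R and vector cells. The others had 0 to 9.10, and the fitted difference was 3.78 ± 0.42. Lrp1b, a giant receptor of the LDL receptor family, had 24.2 to 48.3 against 0 to 15.9 (3.56 ± 0.43). Cntn5, a contactin of neural adhesion, had 24.2 to 83.7 against 0 to 23.9 (3.45 ± 0.47). Its lowest replicate 9 value, in vector cells, lay just above the highest of the others.

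Lrrtm4, a leucine-rich repeat protein of synapses, had 9.68 to 22.0 against 0 to 7.04 (3.62 ± 0.55), which rests on 6 to 50 counts per replicate 9 library. The other RIP libraries held at most 5 counts of Lrrtm4 and at most 17 of Cntn5. The long gene with the most counts among those that did not overlap was Tmem132d, with 137 to 480 per 100,000 against 30.4 to 121 (2.49 ± 0.30).

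The spread among the 105 genes ran from 0.05 to 3.90 on the log2 scale. The genes under 2-fold numbered 10 and included Gm26561, with 284 to 553 in replicate 9 and 326 to 752 in the others, and Astn2, with 24.0 to 33.9 against 2.38 to 59.1. None of the 10 was among the 87 genes whose other libraries averaged under 5 counts, and all 87 were at least 2-fold higher. The larger differences thus lay mostly in genes with few counts outside replicate 9. The difference was thus not shared by all long genes. Cntnap2, a neurexin-family adhesion protein, stood at 1.03 ± 0.23 with overlapping ranges.

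Count density was read by gene span. Per Mb of span and per 100,000 counts, genes over 500 kb had 15.5 to 33.2 counts in replicate 9 RIP and 6.18 to 14.7 in the others. Genes of 300 to 500 kb had 26.4 to 41.0 against 21.8 to 30.9, and genes of 100 to 300 kb had 38.4 to 51.0 against 26.6 to 39.4. In both of these bins the vector library alone fell among the others. Genes of 30 to 100 kb had 74.0 to 83.0 against 56.3 to 78.0. Genes of 10 to 30 kb went the other way, at 118 to 138 against 108 to 190, and lay below the mean of the others in 5 of 5 constructs. Models under 10 kb had 680 to 902 against 815 to 1163. GC content moved with the same sets: the median over the longest transcripts was 43.8% for the 47 models above all others, 52.7% for the 37 below and 49.7% for all that passed. Its part in the differences was not tested.

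**Figure D3:**
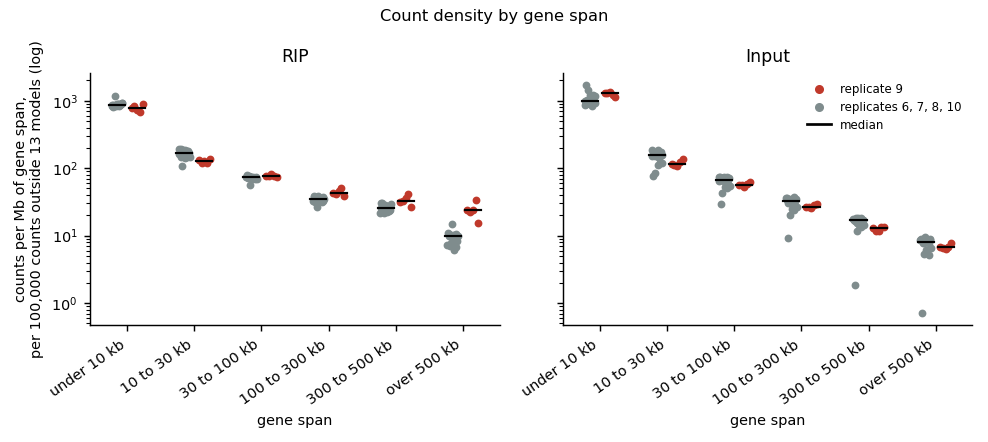
Counts per Mb of gene span, per 100,000 counts outside the 13 models (log y axis), in bins of gene span for RIP (left) and input (right). Points are libraries, lines are medians, and replicate 9 is in red. In the RIP the red medians lie above the grey ones from 30 kb on and the points separate in the last bin (15.5 to 33.2 against 6.18 to 14.7), while in the input the red median lies below the grey one there.

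The inputs of replicate 9 showed no such density. Genes over 500 kb had 6.35 to 7.68 counts per Mb in them and 0.705 to 9.40 in the other inputs. Their sum was 1209 to 1462 per 100,000 in replicate 9, below the 1497 to 1789 of replicates 6, 7 and 8 and above or among the 134 to 1255 of replicate 10. The lowest value belonged to the CNOT7 input of replicate 10, which stood apart from all inputs. Of 82 long genes tested in the inputs, 0 passed the test in either direction by edgeR, 10 had an unadjusted p under 0.05 (all higher) and 2 passed by DESeq2. Of all 4020 input genes 5.75% rose, 1.09% fell and 801 had an unadjusted p under 0.05. The median fitted input difference went the other way from the density, at 0.25 for the 82 long genes, -0.21 for models under 10 kb and -0.08 for all.

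Models that were close to absent from the inputs were also richer in replicate 9 RIP. This set, chosen after the data were seen, holds models with at most 5 counts over all 24 inputs. Those of 10 to 30 kb (2128 models) had 10.9 to 27.4 counts per Mb in replicate 9 RIP and 0.843 to 13.2 in the others. Those under 10 kb (5965 models) had 17.9 to 44.6 against 2.43 to 22.2. In both bins 4 of 5 replicate 9 libraries lay above all others and the vector library did not. Higher counts in replicate 9 were thus also measured outside long genes.

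**Figure D4:**
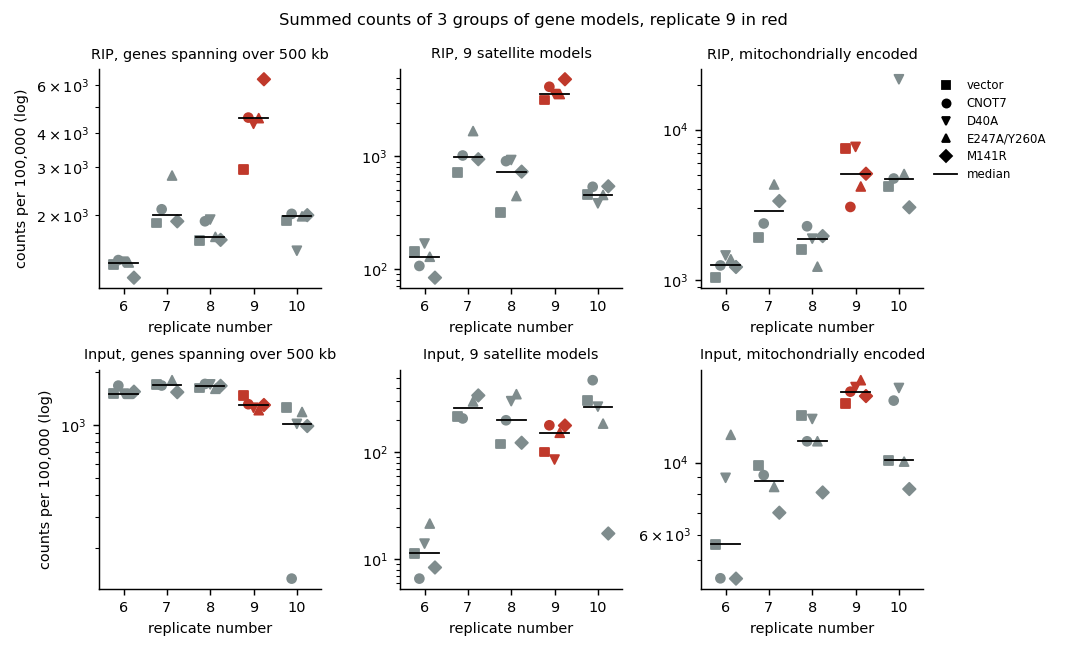
Summed counts per 100,000 counts outside the 13 models (log y axis, scaled separately in each panel) of genes over 500 kb, the 9 satellite models and the mitochondrially encoded models, in RIP (top) and input (bottom) by replicate number. Symbols are constructs, lines are medians and replicate 9 is in red. Long genes and the satellite models, which were listed after their values were seen, separate replicate 9 in the RIP only. Mitochondrial counts in the RIP of replicate 10 overlap those of replicate 9.

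Mitochondrially encoded RNA was read next. In the RIP, 22 of 36 models passed the filter and 16 were at least 2-fold higher (16.7% of all models were), and 0 of 22 separated from all other libraries, where 3.81% of all models lay above and 3.0% below, so that 0 is near the background. Their sum was 3055, 7680, 4181, 5088 and 7493 per 100,000 in CNOT7, D40A, E247A/Y260A, M141R and vector cells, against 1032 to 4313 in replicates 6, 7 and 8. Replicate 10 held 3038 to 21684, the highest in D40A cells, so the 2 replicate numbers overlapped. mt-Nd1, a subunit of complex I, averaged 309 per 100,000 in replicate 9 and 73.8 in the others (2.55 ± 0.46). mt-Ts1, the mitochondrial tRNA for serine, went the other way at -0.94 ± 0.63.

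In the inputs the mitochondrial sum was 15207 to 17936 in replicate 9 and 4393 to 16974 in the others. By edgeR's quasi-likelihood test 7 of 30 models rose, where 5.75% of all input genes did, and 0 fell. They were mt-Nd2 and 6 tRNAs, among them mt-Tw (2.54 ± 0.55, adjusted p = 0.00431) and mt-Ty (1.43 ± 0.36, adjusted p = 0.0125). The median of the 30 was 0.97 against -0.08 for all 4020 genes.

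Genes of protein folding in the endoplasmic reticulum had a higher sum in the RIP in 4 of 5 constructs (1.201 ± 0.928, log2 of the sum + 1, SD, n = 5). Of the 8 members 3 passed the filter, and all 3 were at least 2-fold higher, where 16.7% of all models were, and 0 of them separated from all other libraries, which is near the background of 3.81% above and 3.0% below. They were Hspa5, the chaperone BiP (1.89 ± 0.30), Canx, a lectin chaperone (1.86 ± 0.41), and Hsp90b1 (1.38 ± 0.37). Their list of 8 summed to 57.9 to 194 in replicate 9 and 13.7 to 118 in the others, so the ranges overlapped, and none of its 7 measured members passed the input test by edgeR (2 had an unadjusted p under 0.05, and 1 passed by DESeq2), which is near the background of 5.75% higher and 1.09% lower, with 801 of 4020 genes at an unadjusted p under 0.05. The transcripts that the study lists summed to 305 to 755 against 77.3 to 480. Of these 6 passed the filter, and Tenm2, Magi1, Sorbs2 and Brinp3 were at least 2-fold higher (1.57 to 2.73). Tenm2 and Magi1 span over 500 kb and are already counted among the 105 long genes. The study chose the listed transcripts on enrichment in RIP libraries of this series and on an inverse correlation with Cnot7 in separate arrays. For a direction in the RIP they are therefore not independent evidence.

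Members of the complex itself could not be read in the RIP. None of 17 CCR4-NOT subunits and TOB/BTG partners passed the filter there, and their sum was 20.97 to 39.9 against 10.1 to 38.5. In the inputs 7 of the 17 were tested and 1 rose, Btg1, an antiproliferative partner of CNOT7 (1.65 ± 0.32, adjusted p = 0.00189 by edgeR), where 5.75% of all input genes rose. Of 24 RNA-binding adaptors 1 passed, with no 2-fold difference. None of the 49 replication-dependent histones and none of the 20 snoRNA, scaRNA and snRNA models passed. Of 81 cytosolic ribosomal protein genes 2 passed and 1 was at least 2-fold lower. Of the lists of housekeeping mRNAs (14), stress response (9), Snhg hosts (12), nuclear lncRNAs (3) and small structured RNAs (4), 1 model each passed and none reached 2-fold, and of 13 proliferation genes 0 passed. Of 261 opposite-strand models 31 passed, with 1 at least 2-fold higher and 2 lower. Over all 1234 models 16.7% were at least 2-fold higher and 3.65% lower, so single members of these lists at 2-fold are no result about the lists. The cell type lists rested on few counts in the RIP: fibroblast markers summed to 3.23 to 8.37 per 100,000 against 0 to 6.39, and endothelial markers to 3.99 to 14.9 against 0 to 6.82. Mammary epithelial markers summed to 13.97 to 43.2 against 3.55 to 38.1. Macrophage markers summed to 8.07 to 20.5 against 6.39 to 23.5 in the RIP, lymphocyte markers to 0 to 3.72 against 0 to 3.97, and Alas2 to 1.61 to 8.37 against 0 to 11.4. The part of such cells in these values was not tested.

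Models lower in replicate 9 were shorter than those higher. The 37 had a median span of 14.3 kb (698 kb for the 47 higher ones and 20.0 kb for all that passed) and a median of 5207 counts over the inputs, against 226 for the 47 and 2286 for all that passed. A model can lie below all others only where it is counted in each of them. Antisense models made up 10 of the 37 and 26.2% of all that passed. Gm26508 (chr11:119077573-119081865 in GRCm38, a lincRNA model) had 9.98, 14.6, 9.61, 9.30 and 11.3 per 100,000 against 24.0 to 65.4 (-1.50 ± 0.26). Gm37376, a short model on chromosome 19, had 100 to 167 against 193 to 966 (-1.22 ± 0.54). Gins2, a subunit of the GINS replication complex, had 3.84 to 11.3 against 12 to 50.5 (-1.17 ± 0.26).

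Ptger1, the EP1 receptor for prostaglandin E2, had 26.5 to 45.2 against 50.0 to 239 (-1.11 ± 0.26). Xrcc3, a DNA repair gene, had 6.73 to 11.97 against 13.8 to 44.9 (-0.92 ± 0.20). Abhd1 had 1.995 to 10.6 against 13.5 to 49.8 (-1.37 ± 0.30). For 1600012H06Rik, Ocel1, Calhm2, Gm12359, Gm16754 and Tmem189 the fitted differences lay between -0.84 and -1.10. On the scale of counts per 100,000 all 12 separate, but with DESeq2's size factors 2 of the 37 remained below all others and no further model did, so the count of models below depends on the scaling.

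Antisense models as a class had 11096 to 15419 counts per 100,000 in replicate 9 RIP, 11085 to 16596 in replicate 10, 17944 to 22197 in replicates 7 and 8 and 24708 to 25920 in replicate 6. Replicate 9 was thus not alone at the low end. Whether the counting used the strand is not given in the sources used here, so counts of a gene and its antisense partner may not be separate.

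The inputs were then tested. Of 4020 genes, 231 rose in replicate 9 (5.75%) and 44 fell (1.09%) at an adjusted p under 0.05 by edgeR's quasi-likelihood test with construct as a block. These counts moved with the libraries that entered. Without the D40A libraries 83 rose and 6 fell, and without replicate 10 378 rose and 175 fell. With library size in place of TMM the split became 156 and 245.

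The genes that rose most clearly were of several kinds. Gemin6, of the SMN complex that assembles snRNPs, had 3.38, 6.46, 3.13, 5.19 and 4.57 per 100,000 in CNOT7, D40A, E247A/Y260A, M141R and vector inputs and 0 to 2.16 in the other inputs (3.10 ± 0.44, adjusted p = 0.000275). Arpc5l, of the Arp2/3 actin complex, had 20.4 to 47.3 against 1.69 to 16.99 (2.50 ± 0.38, adjusted p = 0.000492). Nup205, a nucleoporin, had 4.44 to 6.17 against 0 to 2.91 (2.24 ± 0.33, adjusted p = 0.000277). Sc4mol, a sterol demethylase of cholesterol synthesis also named Msmo1, had 31.5 to 50.0 against 3.91 to 26.4 (1.76 ± 0.27, adjusted p = 0.000520). 1700064H15Rik, Apopt1, Myo18a and Dgcr6 rose by 1.79 to 2.06, with adjusted p between 3.6e-05 and 0.000520. None of these 8 passed the filter in the RIP.

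Among genes that fell, Gm26508 was first (-1.09 ± 0.21, adjusted p = 0.00189), with 8.36 to 17.2 per 100,000 against 22.2 to 57.0. Fshr, the receptor for follicle-stimulating hormone, fell by 1.95 (SE 0.47, adjusted p = 0.00976), with 0 to 6 counts per replicate 9 input. Tox4, a high-mobility-group protein, fell by 1.03 (SE 0.26, adjusted p = 0.0137). Gm38058, B230206H07Rik, D630008O14Rik, Gm28364 and Msmp fell by 1.04 to 1.31 on the log2 scale, with adjusted p between 0.00971 and 0.0139. Several of these calls were lost when the libraries of 1 construct were left out, while each fitted difference stayed within its SE. Without D40A, B230206H07Rik went from -1.05 to -1.02 and Msmp from -1.14 to -1.09. Fshr moved most, from -1.95 to -1.61 without M141R. Without the D40A libraries B230206H07Rik, D630008O14Rik, Gm28364, Tox4 and Msmp lost theirs (adjusted p = 0.0574 to 0.0698 by edgeR), and without M141R Fshr, D630008O14Rik, Gm28364 and Msmp did (0.0842 to 0.102). Tox4 also lost its call without E247A/Y260A (0.0799) and Msmp without CNOT7 (0.0544). With no filter on low counts 6 of the 8 lost theirs, Gm38058 and Fshr excepted (0.0772 to 0.117). The fitted differences of these 6 did not shrink there. They ran from -1.14 for Tox4 to -1.26 for Msmp, each larger in size than with the filter. The 44 had a median span of 6.62 kb and 19 were antisense models, whereas the 231 had a median span of 28.4 kb and 190 were protein coding. Of all 4020 tested genes 644 were antisense and 2850 protein coding, with a median span of 20.8 kb.

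The models higher in the RIP of replicate 9 were then read in its inputs. Of the 47 models above all others in the RIP, 38 were tested in the inputs, and 0 of them rose or fell there by edgeR (4 had an unadjusted p under 0.05, and 2 passed by DESeq2), with a median input difference of 0.22. All 37 models below all others were tested in the inputs, and 3 fell, namely Gm26508, Abhd1 and Gins2, with a median of -0.42. Over all 4020 input genes 5.75% rose and 1.09% fell, and 801 had an unadjusted p under 0.05, so 0 calls among 38 are near the background.

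**Figure D5:**
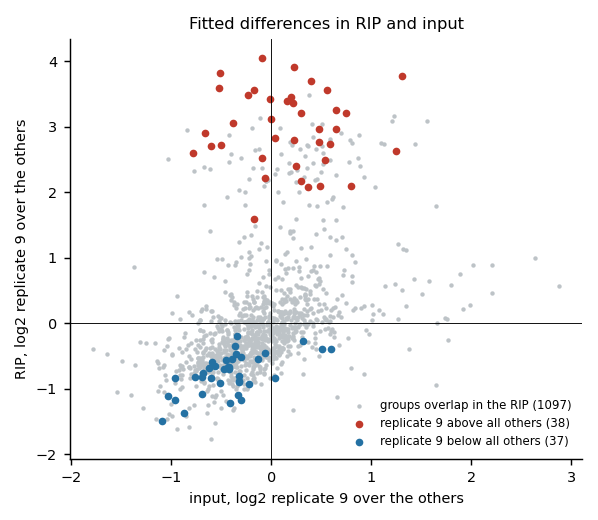
Fitted log2 difference of replicate 9 from the others in the input (x axis) and in the RIP (y axis) for the 1172 models fitted in both. Red models lie above and blue models below all other libraries in the RIP. The 38 red points spread around 0 on the input axis (median 0.22) and the 37 blue points lie mostly to its left (median -0.42).

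Within replicate 9, M141R was highest and vector lowest for models detected, for the share outside the 13 models, and for the sums on long genes and on satellite, while the other 3 changed places. Single satellite models departed from this, and Gm10801 was highest in vector cells (705) and Gm10800 in CNOT7 cells (2065). Each construct has 1 library there, so no difference between constructs within replicate 9 was tested. The vector library, from cells that hold no FLAG protein, had 2949 on long genes and 3170 on satellite, and the M141R library had 6324 and 4852.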

How the data were processed

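The authors deposited 1 table of read counts per gene model for 24 RIP and 24 input libraries, and every column was used (0 left out). Per the labels, the processing notes name BWA, HTSeq and mm9, without versions. The annotation and the strand setting of the counting are not given in the sources used here. The kit was directional and removed rRNA. Names, spans and biotypes came from GENCODE M21 (GRCm38) by identifier, and 344 of 26899 models were not in it.

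The 13 models with the most RIP counts were left out, and counts were divided by the remaining total. Non-overlap between replicate 9 and the other libraries was read on that scale. Fitted differences came from edgeR 4.0.16 (R 4.3.3) quasi-likelihood fits with construct as a block, TMM scaling and filterByExpr, separately for RIP and input. The SE is the absolute log2 difference over the square root of F. P-values were adjusted by Benjamini-Hochberg over all genes tested and are given for inputs only. Single input values were tested by exact two-sided permutation within constructs. The programs were tested on simulated data. Other tools were DESeq2 1.42.0, Python 3.11.15, numpy 2.4.6, pandas 2.3.3, scipy 1.17.1 and matplotlib 3.10.9.

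Total counts per library ranged from 337861 to 826768 in inputs and from 1305627 to 10719137 in RIP. Counts carry no molecular identifiers, and no source says that replicates are separate cultures, so errors and p-values measure the spread between libraries, which may be technical. No 2 libraries held identical counts.

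The members and lists were chosen with earlier results of these data known. Named RIP models are the 12 in each direction with the largest fitted difference among those that did not overlap (over 3 counts in each higher library, or a mean of at least 10 for lower ones), and named input genes are the 8 in each direction with the smallest adjusted p. The satellite group, span bins, low-input set, GC content and shared sequence were chosen after the data were seen. Of the named RIP models, 1 that was higher is not reported here.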

Additional observations from a re-analysis of the deposited data

Results flagged for a closer look

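Of 90 groups of 4 or 5 libraries that were checked, 11 held a library far from the others, and chance gives about 1 in 20. Values of replicate 9 RIP libraries among them were part of the choice of this replicate and are descriptions.

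The D40A library had 10719137 total counts against 1484364 to 2732681 in the other replicate 9 RIP libraries. The M141R library of replicate 9 had 4.615% of its counts outside the 13 models, against 1.97% to 2.67% in the other M141R RIP libraries. On genes spanning over 500 kb the CNOT7 and M141R libraries of replicate 9 had 4569 and 6324 counts per 100,000, against 1365 to 2100 and 1176 to 1998 in the other libraries of their construct. On the satellite models the CNOT7, M141R and vector libraries of replicate 9 had 4162, 4852 and 3170, against 106 to 1020, 83.8 to 945 and 144 to 726.

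The other 4 lay outside replicate 9. The vector RIP library of replicate 6 had a rank correlation of 0.724 with its input, against 0.579 to 0.619 in the other vector libraries. The CNOT7 input of replicate 10 had 134.1 counts per 100,000 on genes spanning over 500 kb, against 1308 to 1704 in the other CNOT7 inputs. On mitochondrial rRNA the RIP libraries of replicate 10 had 3016 in CNOT7 cells and 17049 in D40A cells, against 305 to 1069 and 250 to 2077.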

How the results depend on the processing

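No paired analysis was possible because the groups compared, replicate 9 and the other numbers, share no replicate number. The cause was not tested for any value below that moved, apart from fewer or more models entering a count.

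The RIP models above all others (47) became 80 with DESeq2's size factors, 74 with TMM (chosen after seeing the data), 182 with no filter, 4 with at least 10 counts in every library and 134 with all models kept. The models below all others (37) became 2, 8 and 4 with DESeq2's size factors, TMM and all models kept, and 57 with 30 models left out. With a replicate number or construct left out, the counts were 43 (lowest) to 115 (without vector) and 42 to 164 (without replicate 10). Models at least 2-fold higher (206) became 11080 with no filter, 18 with the minimum of 10 and 384 with all models kept, and 147 to 245 with libraries left out. Those at least 2-fold lower (45) became 28 with DESeq2's size factors, 373 with library size, 1279 with no filter, 7 with the minimum of 10 and 113 with all models kept, and 29 to 72 with libraries left out.

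Input genes that rose (231) became 34 with the minimum of 10, and ran from 83 (without D40A) to 378 (without replicate 10). Those that fell (44) became 70 with DESeq2, 245 with library size and 29 with a 2-fold minimum, and ran from 6 (without D40A) to 175 (without replicate 10). The RIP difference in detected models (2739) became 1752 at the lower depth, and ran from 2240 to 3071 with libraries left out. The input difference (-86.2) turned to 183 with 30 models left out, and ran from -790 (without replicate 6, exact permutation p = 0.046) to 245 (without replicate 7). The input share outside the 13 models (0.683) turned to -5.38 with 30 left out, and ran from -1.06 to 2.71. The input sum of nuclear lncRNAs (-0.42 on the log2 scale) ran from -0.92 without replicate 6 to 0.24 without replicate 10.

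The RIP share outside the 13 models (1.11 to 1.51), the rank correlation (-0.13 to -0.066) and long-gene sums (1.23 to 1.51) kept their direction with libraries left out. Among values of named genes none reversed: 244 of the RIP values moved by less than their error and 72 by more, and 17 of the input values lost their call while 197 kept it.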
